A study of Arabidopsis thaliana with 4 samples.

Results

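Local leaves of Arabidopsis thaliana, the leaves to which a treatment was applied, were compared between plants given Dox and plants given water. The comparison takes 2 of the 4 deposited samples and 6 of the 12 columns of counts, 3 columns from leaves with Dox and 3 from leaves with water. It covers all 32982 genes of the count files, joined by row identifier, of which 19403 passed a filter on low counts and were tested. Dox was applied at 25 um/g, as the labels write it, and they do not spell the name out. All plants grew in long days on a sucrose-containing agar medium, and no mutation or transgene is given for either group. For ecotype, plant age and the time from treatment to harvest, the labels and design text used here give nothing. The other 2 samples are systemic leaves, and the study's title speaks of an adaptation that mitochondrial stress induces there.

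Mitochondria report their state to the nucleus by retrograde signalling. In Arabidopsis, NAC transcription factors such as ANAC017 are held at the endoplasmic reticulum, and after their release they raise nuclear genes such as AOX1A, which encodes the alternative oxidase of the inner mitochondrial membrane. Levels are given as CPM, the count of a gene relative to the total count of its library after TMM scaling, a correction for library composition. The log2 fold changes are Dox over water from edgeR, so a positive value means a higher level with Dox, and SE is their standard error.

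The 6 libraries held 19435961 to 21380652 counts each, and 21429 to 21845 genes were detected in each. The columns of 1 group differed far beyond counting noise, and they were treated as separate libraries. Whether each column is a plant or pool of its own is not stated. The p-values therefore describe library-to-library spread, which may be technical. The first principal component of log2(CPM + 1) held 49.0% of the variance and did not part the treatments. Water libraries 1 (-40.2) and 2 (-46.8) lay at one end with Dox library 2 (-19.3) nearest to them, while water library 3 (36.7) lay among Dox libraries 1 (45.8) and 3 (23.9). Across genes, water library 3 correlated at 0.978 with Dox library 1 and at 0.947 with water library 1, and water libraries 1 and 2 at 0.981 with each other. Whether columns were exchanged between the groups was not tested, and such an exchange would alter every difference given here. Mitochondrial-encoded genes took 0.0972% of the counts in water library 3 and 0.0332% to 0.0552% in the other 5. The leaf label was checked with RBCS1A, the gene of a Rubisco small subunit, which stood at 6571 to 12310.0 CPM. Of 8 root markers 1 was measurable and 3 stood at 0 in all 6 libraries. Of 5 shoot apex markers 2, WUS and CLV3, were at 0 as well. Together the 5 summed to 0.191 to 0.237 CPM with water and 0.416 to 0.489 CPM with Dox. In such bulk samples, fewer cells of a type and less RNA per cell cannot be told apart.

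**Figure D1:**
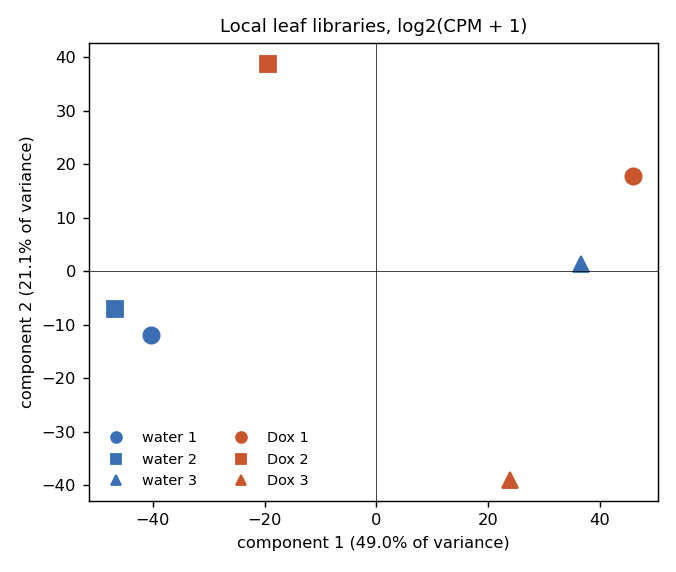
First (x axis) and second (y axis) principal components of log2(CPM + 1) over 17691 genes in the 6 local leaf libraries, 1 point each, with the share of variance in percent. Water library 3 sits on the right among Dox libraries 1 and 3, and Dox library 2 sits on the left with water libraries 1 and 2.

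No gene passed the main test. With the edgeR quasi-likelihood method, 0 of 19403 genes (0%) reached an adjusted p of 0.05, and the smallest adjusted p was 0.902, while 915 genes (4.72%) had an unadjusted p under 0.05, 517 of them higher (2.66%) and 398 lower (2.05%). DESeq2, run on the same counts, called 14 genes (0.0722%), 8 higher (0.0412%) and 6 lower (0.0309%) with Dox, and limma-voom with quality weights called 0. All 3 Dox libraries lay above all 3 water libraries for 803 genes (4.14%) and below them for 660 (3.4%). These 1463 genes, 7.54% of those tested, are called non-overlapping here, and 54.9% of them were higher with Dox. The direction of that split depended on scaling, since with total counts in place of TMM factors 438 were higher and 852 lower (34.0% higher), and with a length correction 624 were higher and 799 lower (43.9% higher). An exact permutation test of 3 libraries against 3 cannot go below a two-sided p of 0.1, which is the p of complete separation. If the groups did not differ, a share of 0.1 of genes would be expected to separate, and the share seen was not larger. The absence of overlap is thus a description of these libraries.

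DESeq2 called 6 genes lower with Dox, which were CKX5, FLC, AT2G15880, AT3G60980, YUC9 and ATHB4. CKX5 (AT1G75450), a cytokinin oxidase that degrades cytokinin, stood at 16.2, 21.9 and 12.2 CPM in water libraries 1, 2 and 3 and at 4.46, 6.46 and 4.94 CPM in Dox libraries 1, 2 and 3. All 3 Dox libraries lay below all 3 water libraries. The means were 16.8 ± 4.91 CPM with water and 5.29 ± 1.04 CPM with Dox (SD, n = 3), a log2 fold change of -1.67 (SE 0.29). Its DESeq2 adjusted p was 0.000876, and its edgeR adjusted p was 0.902.

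FLC (AT5G10140), the MADS-box repressor of flowering, stood at 15.0, 11.6 and 12.99 CPM with water and 3.98, 6.03 and 7.28 CPM with Dox, again without overlap. Its log2 fold change was -1.19 (SE 0.26), with a DESeq2 adjusted p of 0.0300. The leucine-rich repeat gene AT2G15880 had 73.8, 53.1 and 44.3 CPM with water and 18.6, 27.0 and 15.42 CPM with Dox. The tetratricopeptide repeat gene AT3G60980 varied little within groups, at 19.2, 18.1 and 17.9 CPM with water and 10.2, 9.12 and 8.65 CPM with Dox. The log2 fold changes of this pair were -1.49 (SE 0.28) and -0.98 (SE 0.18), at DESeq2 adjusted p of 0.00387 and 0.00187.

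YUC9 (AT1G04180), a flavin monooxygenase of auxin synthesis, stood at 6.21, 7.64 and 0.890 CPM with water and 0.357, 0.597 and 0.305 CPM with Dox. The groups did not overlap, but water library 3 lay much nearer to the Dox libraries than to the other water libraries. ATHB4 (AT2G44910), a homeodomain-leucine zipper factor of the shade response, was low throughout, at 1.62, 1.70 and 0.712 CPM with water and 0, 0.271 and 0.153 CPM with Dox, so that 82 reads with water and 8 with Dox lie behind its value. Their log2 fold changes were -3.54 (SE 0.94) and -3.18 (SE 0.72), with DESeq2 adjusted p of 0.0336 and 0.0169.

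The genes called higher had short annotated transcripts, and 2 encode subunits of the mitochondrial respiratory chain. SDH8 (AT2G46390), a small plant-specific subunit of succinate dehydrogenase (complex II), stood at 16.0, 9.53 and 18.8 CPM with water and 44.2, 28.3 and 55.2 CPM with Dox. All 3 Dox libraries lay above all 3 water libraries, with a log2 fold change of 1.53 (SE 0.30) and a DESeq2 adjusted p of 0.0101. AT2G02510, annotated as a subunit of NADH dehydrogenase (complex I), stood at 20.5, 22.0 and 26.52 CPM with water and 37.7, 34.5 and 37.2 CPM with Dox, a non-overlapping difference of 0.66 on the log2 scale (SE 0.14; DESeq2 adjusted p 0.0247).

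AT7SL-1 (AT4G02970), named for the 7SL RNA of the signal recognition particle and listed by RefSeq as protein-coding, stood at 8.88, 6.84 and 11.5 CPM with water and 23.3, 18.3 and 30.03 CPM with Dox. Its log2 fold change of 1.40 (SE 0.23) had the same DESeq2 adjusted p as that of CKX5, 0.000876. AT1G15270, a TMA7 homolog named for association with the translation machinery, was even within the Dox group, at 33.3, 28.9 and 39.7 CPM with water and 57.4, 54.8 and 53.3 CPM with Dox. Its log2 fold change was 0.70 (DESeq2 adjusted p 0.00387). The other 4 were the dynein light chain gene AT4G15930 (0.67), AT5G42765 (0.56), AT3G47836 (1.01) and the glycine-rich protein gene AT4G30450 (3.70), with DESeq2 adjusted p of 0.0101, 0.0247, 0.0371 and 0.0247. AT4G30450 was near the detection limit with water, at 0.143, 0.0472 and 0.178 CPM against 1.43, 0.380 and 3.104 CPM with Dox. For all 14 genes the 2 groups of libraries did not overlap. Groups so separated stay separated when any 1 library is left out, so that no log2 fold change turned in sign adds nothing.

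**Figure D2:**
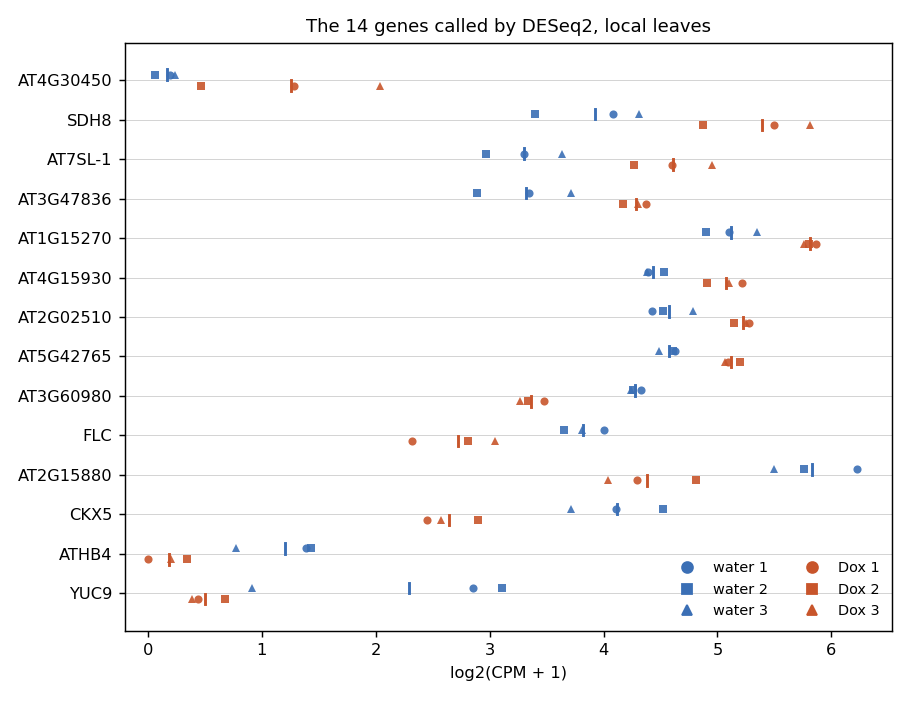
Levels of the 14 genes called by DESeq2 (rows) as log2(CPM + 1) on the x axis, with 1 point per library and a short vertical bar at each group mean, water in blue and Dox in orange. In each row the 3 Dox points lie on one side of the 3 water points, and water library 3 is nearest to Dox for YUC9 and ATHB4.

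Transcript length moved with these calls and with the comparison as a whole. The 8 genes called higher have annotated transcripts of 479 to 1169 nt and the 6 called lower of 1042 to 2711 nt, against a median of 1740 nt over all genes tested. Among genes with transcripts over 500 and up to 750 nt the median log2 fold change was 0.24, and 11.6% were non-overlapping and higher, whereas above 3000 nt the median was -0.02 and 1.69% were. Genes of up to 500 nt stood at 0.18 and 10.6%. The shares that were non-overlapping and lower rose from 1.65% over 500 and up to 750 nt to 3.9% over 1500 and up to 2000 nt. They were 3.60% over 2000 and up to 3000 nt and 3.39% above 3000 nt. The class of up to 500 nt departed from this order, at 3.45%.

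Single libraries carried this pattern unequally. In that class, over 500 and up to 750 nt, genes at 5 CPM or more lay at a median of -0.19 log2 units from their own 6-library mean in water library 1 and -0.19 in water library 2, but at 0.03 in water library 3. Dox libraries 1 and 3 stood at 0.17 and 0.22, and Dox library 2 at 0.00. The order by length was thus present between Dox libraries 1 and 3 and water libraries 1 and 2, and not seen in water library 3 or Dox library 2. After a length correction of each library, added once the data had been seen, the class had a median of 0.00, edgeR again called 0 genes, and the log2 fold changes became 1.21 for SDH8, 0.50 for AT2G02510 and 0.39 for AT1G15270. In the class of up to 500 nt, which holds AT1G15270, the correction took the median of all 377 genes from 0.18 to -0.28. The correction was fitted on genes at 5 CPM or more, which were 46 of that class. Those genes lay at medians of -0.37, -0.31 and -0.004 in water libraries 1, 2 and 3. In Dox libraries 1, 2 and 3 they lay at 0.26, 0.06 and 0.44. The overshoot seen over the class is therefore not shown for genes at the level of AT1G15270. In systemic leaves the class up to 500 nt had a median of 0.16 and the next one -0.03. What part library preparation or RNA quality plays in the pattern was not tested.

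**Figure D3:**
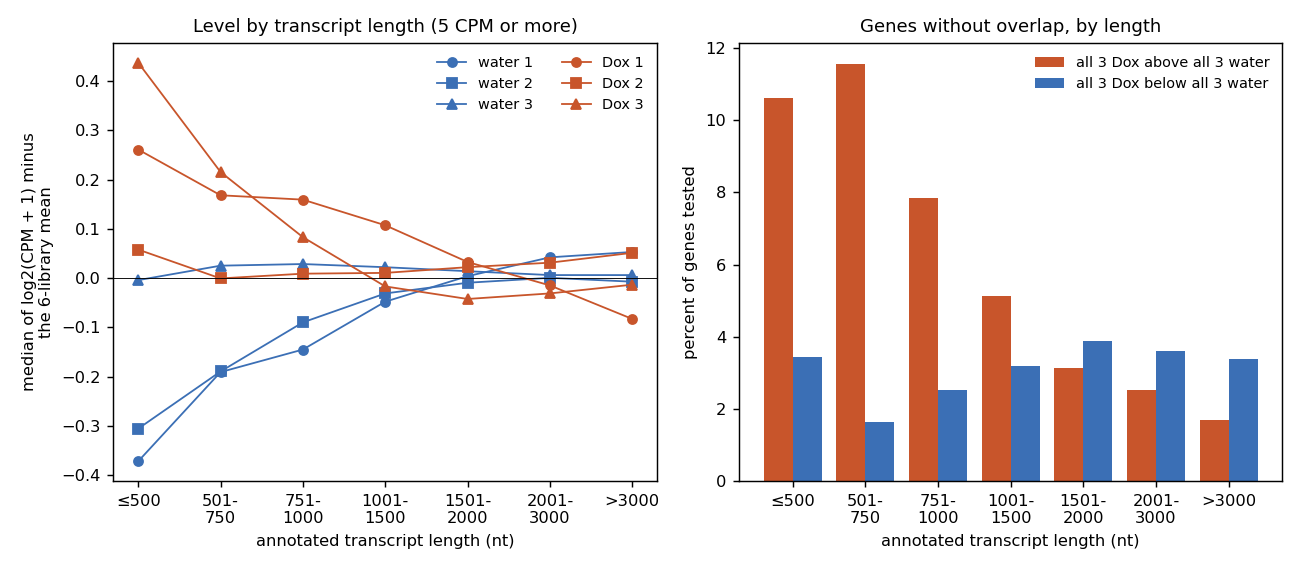
Left, the median over genes of log2(CPM + 1) minus the 6-library mean (y axis) by class of annotated transcript length in nt (x axis), 1 line per library. Right, the percent of genes tested (y axis) in each class whose Dox libraries lie all above (orange) or all below (blue) the water libraries, with 11.6% above in the class up to 750 nt and 1.69% over 3000 nt.

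Genes of endoplasmic reticulum bodies, the compartments in which Arabidopsis stores beta-glucosidases used against attackers, stood lower with Dox in these libraries, although no member passed a test. Of 12 listed genes 10 were measured, all 10 had negative log2 fold changes, and 6 were non-overlapping and lower, against 3.4% of all genes. The list median was -0.98, against 0.02 over all genes tested, and -1.61 to -0.71 when any 1 library was left out. Neither edgeR nor DESeq2 called a member, and 5 had an unadjusted edgeR p under 0.05, against 4.72% of all genes.

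PYK10 (AT3G09260), the main beta-glucosidase of these bodies, stood at 239, 184 and 179 CPM with water and 14.4, 25.7 and 39.9 CPM with Dox. The lowest water library was more than 4 times the highest Dox library, and the log2 fold change was -2.91 (SE 0.95; edgeR unadjusted p = 0.0107, adjusted p = 0.902). NAI2 (AT3G15950), a protein needed to form the bodies, was at 78.7, 44.7 and 57.6 CPM with water and 12.6, 12.4 and 23.3 CPM with Dox (log2 -1.90, SE 0.71). The jacalin-type lectin genes JAL33 (-2.70) and JAL34 (-0.94), PBP1, which encodes a PYK10-binding lectin (-1.03), and the membrane protein gene MEB1 (-0.63) did not overlap either.

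The rest of the list overlapped between groups. BGLU18, a wound-related beta-glucosidase of leaf ER bodies, was at 1236, 714 and 241 CPM with water and 261, 85.0 and 800.3 CPM with Dox, with Dox library 3 above 2 of the water libraries. NAI1, the transcription factor that controls PYK10 and NAI2, was at 6.16, 7.12 and 5.58 CPM with water and 8.80, 2.61 and 5.75 CPM with Dox (log2 -0.14). PYK10 is also abundant in roots. The 8 root markers summed to 1.05 to 1.46 CPM with water and 0.535 to 0.977 CPM with Dox. The 1 measurable member was CASP2, a Casparian strip gene (log2 -1.55, non-overlapping and lower). Whether traces of root tissue had a part in the ER body values was not tested.

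**Figure D4:**
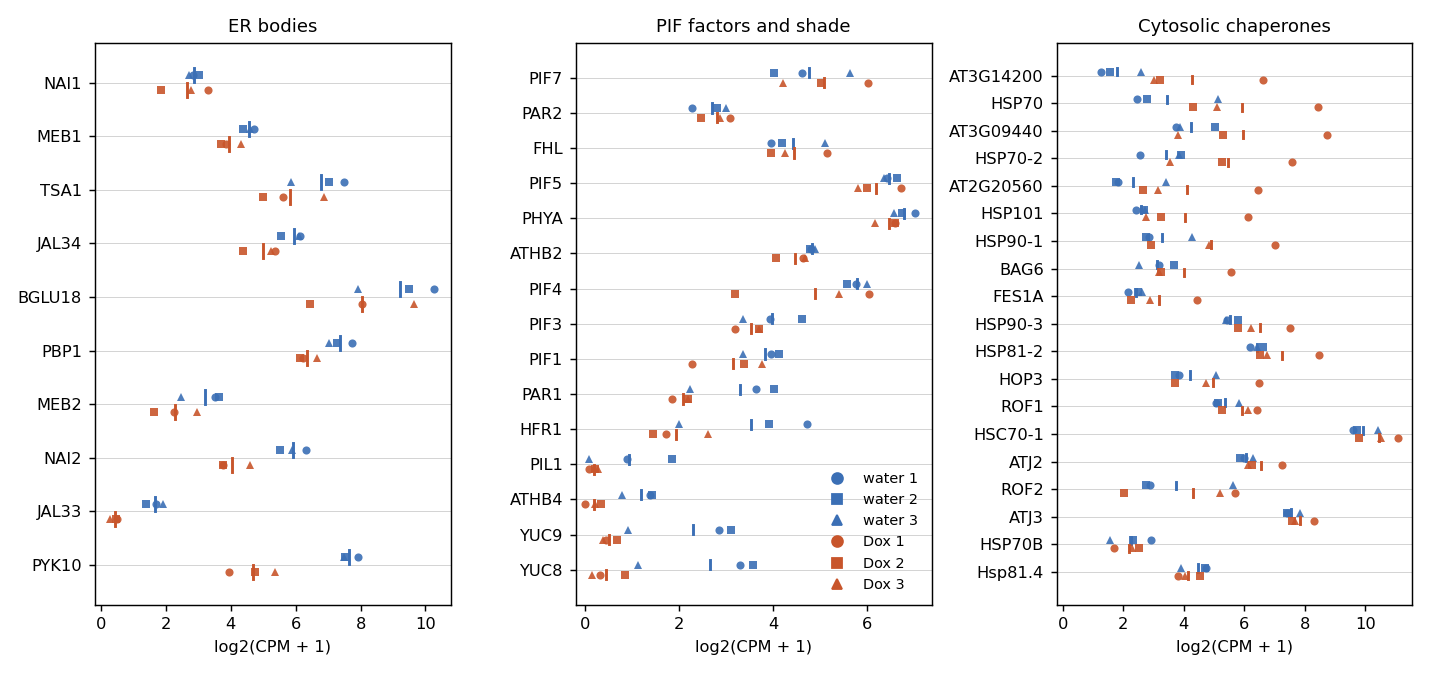
Levels as log2(CPM + 1) on the x axis of every measured gene of 3 lists, with 1 point per library, a short vertical bar at each group mean, water in blue and Dox in orange. PYK10, NAI2, JAL33, YUC8 and YUC9 have all Dox points left of all water points, while most chaperone genes have Dox library 1 alone far to the right.

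Shade genes stood lower with Dox, and DESeq2 called YUC9 and ATHB4 among them while edgeR called none. Phytochrome-interacting factors (PIFs) are transcription factors that raise auxin synthesis and elongation genes in shade and warmth. All 15 listed genes of PIF factors and shade response were measured, 12 had negative log2 fold changes, and 5 were non-overlapping and lower, against 3.4% of all genes. The median was -0.55, and -0.81 to -0.46 without any 1 library. YUC8 (AT4G28720), a flavin monooxygenase of auxin synthesis like YUC9, was at 8.79, 10.9 and 1.19 CPM with water and 0.238, 0.814 and 0.102 CPM with Dox, a log2 fold change of -4.16 (SE 1.28; unadjusted p = 0.00743, adjusted p = 0.902 by edgeR). As for YUC9, water library 3 came close to the Dox libraries. The other non-overlapping members were PAR1, an atypical bHLH repressor of shade growth (-1.65), ATHB4 and ATHB2 (-0.34). The PIF genes themselves overlapped between groups, PIF4 at 53.6, 46.3 and 62.4 CPM with water and 65.1, 8.14 and 41.3 CPM with Dox and PIF5 at 85.2, 98.2 and 80.8 and 105, 62.9 and 55.2 CPM.

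Auxin outputs overlapped between the groups. Of 20 listed auxin response genes 19 were measured, 8 positive and 11 negative, from -2.72 to 1.07 on the log2 scale. The median of that list was -0.14, and 0.20 without water library 2. Of 14 SAUR growth genes, small auxin-induced genes of cell elongation, 13 were measured and all 13 were negative, with a median of -0.71, but none was non-overlapping. SAUR22 stood at 2.72, 8.77 and 0.356 CPM with water and 0.654, 1.41 and 1.68 CPM with Dox, with water library 2 highest and water library 3 below every Dox library. Without water library 2 the median was 0.57, and without water library 3 it was -1.28. IAA29, an auxin-induced repressor, was at 54.3, 129 and 1.78 CPM with water and 3.03, 22.7 and 2.39 CPM with Dox. Water library 2 was again highest and water library 3 again below every Dox library.

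Some genes induced by darkness and low sugar stood lower with Dox, and none was called by edgeR or DESeq2. Of 14 listed, 12 were measured, 10 had negative log2 fold changes with a list median of -0.31, and 3 were non-overlapping and lower, against 3.4% of all genes. The median was -0.20 without water library 1 and -0.48 without Dox library 3. ASN1 (AT3G47340), an asparagine synthetase of the sugar-starved leaf, stood at 219, 95.5 and 174 CPM with water and 75.8, 20.9 and 54.0 CPM with Dox, and SEN1 (AT4G35770), a dark-induced senescence gene, at 157, 95.2 and 62.0 and 43.5, 31.8 and 27.2 CPM. Both groups were separate for both genes, and edgeR's unadjusted p was 0.00733 and 0.00854. The third was the trehalose-phosphate synthase homolog TPS10 (-0.32).

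Genes of carbon fixation stood slightly higher with Dox, without passing a test. All 17 listed genes of Rubisco and the Calvin cycle were measured, all 17 had positive log2 fold changes (0.23 to 0.98), and 8 were non-overlapping and higher, against 4.14% of all genes. The median of 0.46 stayed between 0.33 and 0.70 without any 1 library, the highest value being without water library 3. None was called by edgeR or DESeq2. RBCS1B (AT5G38430), a Rubisco small subunit gene, had the largest value, at 643, 641 and 908 CPM with water and 1019, 1882 and 1418 CPM with Dox (log2 0.98, SE 0.26; unadjusted p = 0.00314, adjusted p = 0.902). The RBCS1B, RBCS2B and RBCS3B genes are near-identical, and counting may divide their reads unequally. CP12-2 (AT3G62410), a small regulator of the cycle, stood at 337, 244 and 484 CPM with water and 626, 511 and 592 CPM with Dox (log2 0.70), and at 0.47 after length correction. GAPB, a glyceraldehyde-phosphate dehydrogenase subunit (0.52), SBPASE, sedoheptulose-bisphosphatase (0.49), and PGK1, phosphoglycerate kinase (0.35), were also non-overlapping. In all of these, water library 3 was the highest water library.

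Photorespiration genes, which recycle the product of Rubisco's oxygenase reaction, had positive values in 10 of 11, with a median of 0.38 (0.21 without water library 2 and 0.63 without water library 3) and no member free of overlap. Light-harvesting genes went the other way, with 15 of 19 measured members negative, a median of -0.33 and no member free of overlap. Dox library 2 was lowest. LHCB2.1, an antenna protein gene of photosystem II, stood at 51.3, 51.5 and 36.8 CPM with water and 66.1, 3.85 and 46.7 CPM with Dox, and CAB2 at 124, 188 and 37.7 and 55.4, 4.51 and 36.2 CPM. The median of the light-harvesting genes was -0.10 without Dox library 2 and -0.73 without Dox library 1. Reads of CAB1, CAB2 and CAB3, which are near-identical, may be divided among them by the counting.

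Genes of sulfur deficiency stood higher with Dox, without passing a test. Of 9 listed, 8 were measured, all 8 had positive log2 fold changes with a median of 0.90 (0.68 to 1.18 without any 1 library), and 3 were non-overlapping and higher, against 4.14% of all genes. LSU2 (AT5G24660), a small protein induced by low sulfur, stood at 2.197, 1.08 and 2.14 CPM with water and 4.82, 6.73 and 14.9 CPM with Dox, and its relative LSU1 (AT3G49580) at 0.478, 0.0943 and 0.593 and 1.72, 2.66 and 3.56 CPM. AT1G04770, a tetratricopeptide repeat gene of the same response, stood at 22.3, 19.4 and 25.6 CPM with water and 26.9, 59.8 and 59.6 CPM with Dox. The log2 fold changes were 2.29 (SE 0.59), 2.77 (SE 1.06) and 1.12 (SE 0.28), with edgeR unadjusted p of 0.00242, 0.0239 and 0.00205 and DESeq2 adjusted p of 0.100, 0.534 and 0.180. The APS reductases APR1, APR2 and APR3, which reduce activated sulfate, were at 0.71, 0.77 and 0.70 with overlap, Dox library 1 being the lowest Dox library for each.

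Iron deficiency genes were positive in 12 of 13, with a median of 0.49, and 2 were non-overlapping and higher, against 4.14% of all genes, with 0 called by edgeR or DESeq2. These were the IRON MAN peptide genes AT1G47400, at 4.01, 7.12 and 20.4 CPM with water and 26.9, 28.1 and 50.5 CPM with Dox, and AT1G47395, at 5.59, 12.4 and 20.3 and 24.0, 42.6 and 51.8 CPM. In both, water library 3 was the highest water library and Dox library 3 the highest of all. The bHLH factors that act upstream, BHLH38 and BHLH39, stood at 4.63, 18.9 and 9.20 CPM and 5.49, 21.2 and 9.08 CPM with water and at 5.95, 21.2 and 18.7 CPM and 6.72, 23.3 and 21.7 CPM with Dox, and overlapped. The regulators PYE (15.71, 16.9 and 12.6 against 15.1, 19.1 and 16.1 CPM) and BTS (275, 367 and 451 against 346, 339 and 507 CPM) overlapped too, as did BHLH100, BHLH101, FRO3, NAS4, OPT3, AT1G74770 and AT2G30766. The median was 0.19 without water library 1, 0.18 without Dox library 3 and 0.85 without Dox library 1.

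Type A response regulators, early genes that dampen cytokinin signalling, were positive in all 9 measured of 10, with a median of 1.17 (0.71 to 1.39 without any 1 library). ARR16 alone was non-overlapping and higher, against 4.14% of all genes. It stood at 3.58, 3.63 and 4.87 CPM with water and 4.995, 21.2 and 12.2 CPM with Dox (log2 1.67, SE 0.50). ARR5 stood at 3.105, 12.1 and 24.6 CPM with water and 29.0, 16.0 and 45.3 CPM with Dox, ARR7 at 4.49, 10.5 and 18.3 and 10.7, 41.7 and 22.3 CPM, and ARR4 at 71.1, 72.3 and 93.7 and 78.3, 116 and 124 CPM. Water library 1 was the lowest library for ARR4, ARR5 and ARR7. ARR6, ARR8, ARR9, ARR15 and ARR17 were at 0.99, 0.37, 0.50, 1.69 and 1.40 on the log2 scale, all with overlap, and ARR15 and ARR17 stayed under 2 CPM. The cytokinin oxidase CKX5, described above, is the member of the breakdown enzymes that DESeq2 called. IPT7, a cytokinin synthesis gene, stood at 0.143, 0.189 and 0.534 CPM with water and 1.67, 2.82 and 0.0509 CPM with Dox, with Dox library 3 at the bottom of the range.

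**Figure D5:**
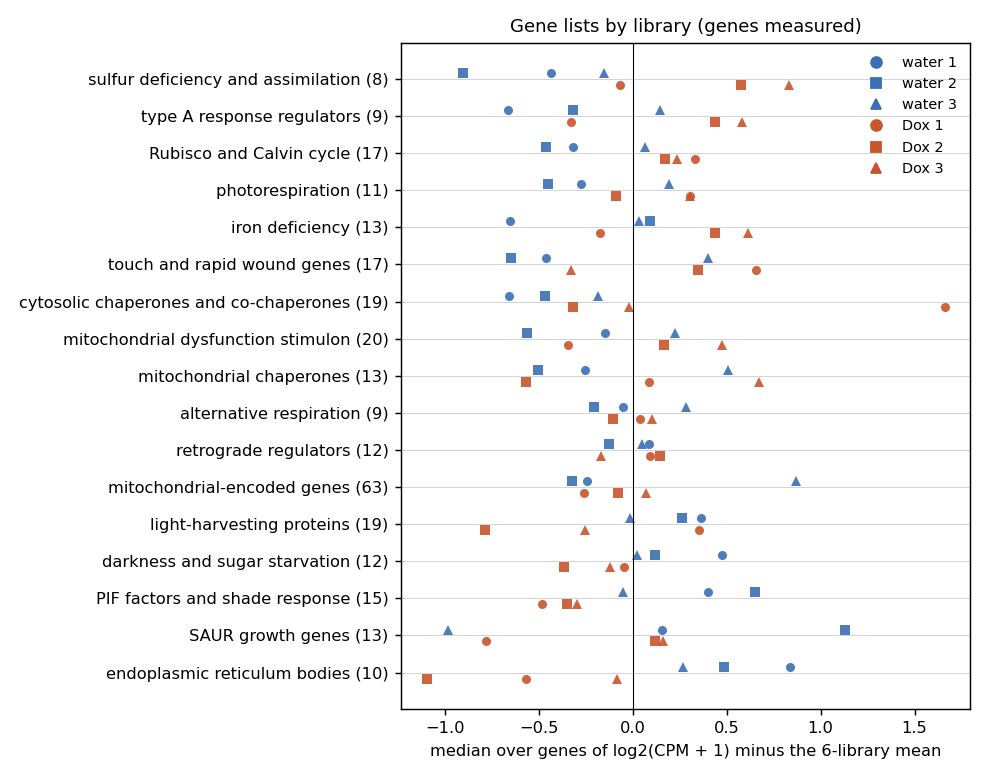
Median over the measured genes of a list of log2(CPM + 1) minus the 6-library mean (x axis), for 17 lists (rows, with the number of genes measured) and 1 point per library. For ER bodies, PIF factors and shade response, darkness and sugar starvation, sulfur deficiency and Rubisco and the Calvin cycle all Dox points lie on one side of all water points, while the chaperones are led by Dox library 1.

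Cytosolic chaperones were high in Dox library 1 rather than in the Dox group. The list had 17 of 19 measured members positive and a median of 1.16, which was 0.23 without Dox library 1. No member was called by edgeR or DESeq2, and 11 had an unadjusted edgeR p under 0.05, against 4.72% of all genes. DESeq2 gave no adjusted p for AT3G14200, so its lack of a call there is not a test result. AT3G14200, a DnaJ-domain co-chaperone gene and the highest value of all non-overlapping genes at 10 CPM or more, stood at 1.39, 1.98 and 4.98 CPM with water and 96.8, 8.25 and 7.12 CPM with Dox (log2 3.76, SE 0.98, and 1.47 without Dox library 1). The disaggregase HSP101 (AT1G74310) stood at 4.35, 5.38 and 5.52 CPM with water and 69.0, 8.41 and 5.75 CPM with Dox, so that Dox library 3 exceeded the highest water library by little, and its log2 fold change of 2.45 was 0.48 without Dox library 1. HSP90-3 was also without overlap, at 42.0, 55.0 and 40.9 CPM with water and 181, 55.0 and 73.5 CPM with Dox, although Dox library 2 and water library 2 round to the same value. Among the heat shock factors HSFB2B was at 3.53, 3.96 and 4.69 CPM with water and 33.7, 13.1 and 2.14 CPM with Dox. Of 11 small heat shock proteins 6 were measured, with a median of 0.79 and none without overlap. The median was 0.63 without Dox library 1, 0.47 without water library 1, 1.32 without Dox library 2 and 1.78 without water library 3. AT1G07400, a member of this list, was at 0.191, 0.424 and 1.31 CPM with water and 8.62, 0.271 and 1.63 CPM with Dox, highest in Dox library 1. AT1G53540 was instead highest in Dox library 3, at 2.09 CPM against 1.72 CPM in Dox library 1. The CPM summed over the measured members was highest in Dox library 2, at 538 against 131 in Dox library 1.

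Over the lists of alternative respiration, retrograde regulators, mitochondrial chaperones and the mitochondrial dysfunction stimulon, ANAC017 alone was without overlap. Among all genes tested, the share without overlap was 7.54%. AOX1A stood at 55.6, 35.5 and 98.7 CPM with water and 87.7, 57.1 and 55.0 CPM with Dox, and water library 3 was the highest of the 6. Of 12 listed genes of alternative respiration 9 were measured, with a median of 0.07 and none without overlap. That median turned to -0.10 with total counts, to -0.08 without water library 1, to -0.21 without water library 2, to -0.05 without Dox library 1 and to -0.24 without Dox library 3. The alternative oxidases AOX1C and AOX1D were at 2.91, 3.301 and 2.43 and 1.24, 2.64 and 0.237 CPM with water and at 1.37, 3.04 and 2.49 and 1.84, 0.543 and 2.14 CPM with Dox, and AOX1B was at 0 in all 6. The alternative NAD(P)H dehydrogenases NDA1, NDA2, NDB1, NDB2, NDB3 and NDC1 were at -0.01, -0.40, 0.09, -0.38, 0.46 and 0.11 on the log2 scale.

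Of 13 retrograde regulators 12 were measured, 6 positive and 6 negative, with a median of 0.00 (-0.12 with total counts, and -0.12 to 0.12 without any 1 library). ANAC017 was non-overlapping and slightly lower with Dox, at 66.0, 54.5 and 55.4 CPM with water and 51.0, 50.2 and 47.2 CPM with Dox (log2 -0.25, SE 0.15; unadjusted p = 0.131, adjusted p = 0.902 by edgeR). Its relatives ANAC013 (7.79, 4.197 and 5.93 against 3.63, 6.35 and 6.11 CPM), ANAC016 (10.2, 7.59 and 12.6 against 3.63, 11.9 and 8.96 CPM), ANAC053 (50.2, 42.9 and 53.0 against 56.9, 66.3 and 39.9 CPM) and ANAC078 (78.3, 75.0 and 106 against 133, 113 and 86.7 CPM) overlapped between groups. The same held for WRKY15, WRKY40 and WRKY63, for the ANAC017 partner RCD1 (387, 325 and 248 against 232, 353 and 239 CPM), for MYB29, for the kinase subunit KIN10 and for CDKE1, a kinase of the Mediator complex needed to induce AOX1A.

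Of 14 mitochondrial chaperones 13 were measured, 9 positive and 4 negative, with a median of 0.12 and none without overlap. HSP60 stood at 49.3, 37.2 and 106 CPM with water and 74.1, 37.1 and 98.3 CPM with Dox, its co-chaperonin CPN10 at 43.1, 41.4 and 103 and 81.4, 33.9 and 107 CPM, and MTHSC70-1 at 112, 117 and 170.4 and 119.5, 124 and 131 CPM. For HSP60 and CPN10, water library 3 and Dox library 3 were high and Dox library 2 low. HSP60-2, HSP60-3A, MTHSC70-2, HSP89.1, CLPB4, MGE1, MGE2 and GFA2 lay between -0.11 and 0.39 on the log2 scale. The small heat shock genes AT5G51440, at 0.239, 0.707 and 10.5 CPM with water and 22.5, 1.36 and 12.6 CPM with Dox, and HSP23.6-MITO were high in water library 3 and Dox libraries 1 and 3. The list median was 0.52 without water library 3 and -0.15 without Dox library 3. The 20 measured genes of the mitochondrial dysfunction stimulon, nuclear genes known to respond when mitochondria fail, had 13 positive values, a median of 0.28 (0.75 without water library 3, 0.17 without water library 1 and 0.09 without water library 2) and none without overlap.

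Further lists of organelle function held few members without overlap. MRPL11, a mitochondrial ribosomal protein, was at 39.8, 37.1 and 49.5 CPM with water and 60.7, 60.7 and 56.0 CPM with Dox (log2 0.49), and SIG3, a plastid sigma factor, at 57.7, 55.1 and 61.2 and 69.9, 76.0 and 86.3 CPM (0.42). SIG3 was the 1 non-overlapping member of 9 measured organelle RNA polymerases and sigma factors, against 4.14% higher over all genes. Mitochondrial malate dehydrogenase MMDH2 stood at 10.3, 9.76 and 12.8 CPM with water and 14.04, 15.3 and 17.2 CPM with Dox (0.50). It was the 1 non-overlapping member of 14 measured genes of the tricarboxylic acid cycle. Of these, 9 were negative, and the list median was -0.06. NFD1, a mitochondrial ribosomal protein of the L21 type, lay lower, at 17.7, 17.3 and 18.5 and 14.7, 12.6 and 15.68 CPM (-0.31), as did AT3G01740 of the same list (-0.09). These made 1 higher and 2 lower of the 14 mitochondrial ribosomal proteins measured, against 4.14% higher and 3.4% lower over all genes. For the 63 measured mitochondrial-encoded genes the median was -0.45, and 0.22 without water library 3, and 4 were non-overlapping and lower. For the 74 measured plastid-encoded genes it was 0.23, and 0.03 without Dox library 1, 0.11 without water library 1, 0.15 without water library 2 and 0.44 without water library 3. Of these, 4 were non-overlapping and higher and 1 lower. Both rest on few counts.

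The remaining genes with the largest non-overlapping differences at 10 CPM or more came from several processes. Among the 12096 nuclear protein-coding genes at that level 836 (6.91%) did not overlap, 522 higher (4.32%) and 314 lower (2.6%). Genes lower with Dox were, besides PYK10, NAI2, ASN1, CKX5, SEN1 and AT2G15880, AT5G44260, a tandem zinc finger gene, at 31.2, 31.0 and 6.94 CPM with water and 2.08, 2.99 and 3.41 CPM with Dox (log2 -3.03). IOS1, a leucine-rich repeat receptor kinase of immunity, stood at -1.30, the DnaJ-domain gene J11 at -1.13, the transcription factor WRKY26 at -1.07, the polyol transporter PMT6 at -1.05 and the cinnamyl alcohol dehydrogenase homolog AT1G72680 at -1.05. Higher with Dox were BBX32, a B-box protein of light signalling, at 7.07, 9.86 and 17.3 CPM with water and 26.7, 34.2 and 25.3 CPM with Dox (log2 1.34), and KRP6, a cyclin-dependent kinase inhibitor, at 10.3, 10.4 and 27.9 and 53.9, 35.8 and 28.6 CPM (log2 1.29). The calcium-ATPase family gene AT3G22910 stood at 1.503, the glycine-rich protein gene AT5G46730 at 1.502, AT1G11850 at 1.76 and AT2G27402 at 1.54. Of the 24 highest and lowest genes, DESeq2 called 4 (CKX5, AT2G15880, SDH8 and AT7SL-1).

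Defence and hormone lists gave few separate members. ICS1, the isochorismate synthase of salicylic acid synthesis, was the 1 non-overlapping member of 15 measured in its list, against 7.54% of all genes. It stood at 16.3, 20.6 and 8.19 CPM with water and 42.3, 30.5 and 34.7 CPM with Dox (log2 1.25, SE 0.58). Its downstream marker PR1 stood at 0.716, 0.236 and 0 CPM with water and 2.2, 0 and 2.75 CPM with Dox, and the 12 salicylic acid outputs had a median of -0.01 (0.28 without Dox library 2 and -0.70 without Dox library 3). AZI1, a lipid-transfer protein gene of systemic immunity, was at 4.44, 1.04 and 0.356 CPM with water and 0, 0.489 and 0.102 CPM with Dox. Touch and rapid wound genes were positive in all 17 measured with a median of 0.40 and none without overlap. XTH22, a touch-induced cell wall enzyme, stood at 1476, 1540.0 and 4315 CPM with water and 5090.3, 2899.6 and 2019 CPM with Dox, highest in Dox library 1 and water library 3. The touch median was 0.72 without water library 3, 0.65 without Dox library 3, and 0.22 to 0.29 without any 1 of the others.

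Of 12 measured morning clock genes 8 were positive, with a median of 0.33 that was 0.11 without water library 2 and -0.20 without Dox library 3. LHY, a core MYB factor, was non-overlapping and higher, at 0.143, 0.424 and 0.297 CPM with water and 0.595, 0.543 and 0.916 CPM with Dox (log2 1.23), and 2 members lay lower, against 4.14% higher and 3.4% lower over all genes. LNK4 was non-overlapping and lower, at 6.64, 10.9 and 2.67 CPM with water and 1.72, 1.79 and 1.48 CPM with Dox (log2 -2.02, SE 0.58). PRR7, a morning repressor, was at 86.5, 80.2 and 81.2 and 42.0, 7.93 and 75.0 CPM, also without overlap, with Dox library 2 far below the rest and Dox library 3 close to water. SEP1, a MADS-box gene of flower development, was at 0.525, 1.08 and 0.0593 CPM with water and 8.80, 1.25 and 5.09 CPM with Dox, so that Dox library 2 only just exceeded the highest water library. EXPA15, a cell wall expansin, was at 0.860, 1.41 and 1.13 CPM with water and 1.49, 2.61 and 3.16 CPM with Dox, without overlap. It was the 1 non-overlapping member of 10 measured alpha-expansins. The 9 measured genes of the flowering transition held 1 higher and 1 lower. Over all genes the shares were 4.14% higher and 3.4% lower.

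Many differences belonged to 1 library. Among 12096 nuclear protein-coding genes at 10 CPM or more on average, Dox library 2 lay more than 2-fold below all 5 other libraries for 100 genes and above them for 15. For Dox library 1 the counts were 36 above and 11 below, and for Dox library 3 they were 27 above and 29 below. Water libraries 1, 2 and 3 had 2, 6 and 3 genes above and 14, 9 and 0 below.

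Dox library 1 was led by HSFA2, a heat shock factor, at 116 CPM against at most 3.26 CPM elsewhere, with the RING gene AT1G14200, the coactivator MBF1C and the HSP70 gene AT3G09440. It was lowest for MBP1, a myrosinase-binding protein gene (0.773 CPM against 6.62 to 80.6 CPM), for the glucosyltransferase genes DOGT1 and AT2G36970 and for AT5G20400. Dox library 2 was high in ABCA1, an ABC transporter gene, at 394 CPM against 48.7 to 155 CPM, along with AT3G21080, AT4G18250 and KCS13. It was low in VSP1, a jasmonate-induced storage protein gene (5.21 CPM against 55.5 to 217 CPM), the lectin gene AT5G03350, LHCB2.1 and CAB2. Dox library 3 was high in BAM5, a beta-amylase (113 CPM against 3.53 to 22.4 CPM), in the squalene epoxidase-like gene SQP1, in RXW8 and in the clock-related gene RVE2. It was low in ABCB21, an auxin transporter gene (67.3 CPM against 263 to 662 CPM), AT5G40450, AT5G22500 and AT3G23550.

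Water libraries had their own genes. Water library 1 was high in the histone gene HIS1-3 (61.4 CPM against 16.1 to 22.4 CPM), the chitinase gene AT2G43570, the peroxidase gene AT4G37520 and CYP71B23, and low in MIOX2, ARR5, AT1G31690 and PEPR2. Water library 2 was high in IAA29, AT5G02540, AT4G25260 and AT1G21060, and low in the glutaredoxin gene GRX480, the catalase gene CAT2 (38.96 CPM against 93.7 to 225 CPM), AT2G38870 and AT1G07590. Water library 3 was high in the SKU5-like gene sks9 (335 CPM against 14.4 to 145 CPM), in the arabinogalactan protein gene AGP2, in the peroxidase gene AT5G39580 and in AT1G22830, and low in ICS1, PGDH, AT5G42680 and AT5G48900. Nothing in the labels sets these libraries apart from others of their group.

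The Dox difference in local leaves was set against that in systemic leaves, which use other control libraries. By edgeR 0 genes passed the test of the difference (smallest adjusted p 0.832), 1008 genes (5.2%) had an unadjusted p under 0.05, and DESeq2 called 1 (0.00515%), the receptor-like kinase gene CRK4. Of the 14 genes called by DESeq2 in local leaves, SDH8 stood at log2 0.05 in systemic leaves, CKX5 at -0.71, YUC9 at -0.70 and FLC at -0.88. The difference between leaf positions did not pass for any of these (edgeR adjusted p = 0.832, 0.832, 0.832 and 0.876). PYK10 was negative in both positions, at -2.91 and -1.82, but its systemic groups overlapped. In systemic leaves it stood at 77.4, 1.65 and 55.7 CPM in control plants and 6.80, 23.61 and 7.68 CPM in Dox plants. Control library 2 was thus the lowest of the systemic libraries. The Rubisco and Calvin cycle median was 0.46 in local and -0.25 in systemic leaves, a contrast that was not tested as a list.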

How the data were processed

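RNA-seq read counts were measured in local leaves with water or Dox and in systemic leaves of control or Dox plants. Per the labels, libraries were made with TruSeq and SMARTER mRNA kits. The submitters' processing notes list featureCounts 1.6.3, HISAT2, Trimmomatic 0.39, FastQC 0.11.9 and DESeq2. For strand, genome build and annotation the sources used here give nothing. The authors deposited raw counts per gene, 3 columns per sample. The columns were treated as libraries because they differed beyond counting noise (median chi-square per degree of freedom 14.5 with water and 18.7 with Dox).

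The deposited counts of all 12 columns were fitted with 4 group means in edgeR 4.0.16 (R 4.3.3), with TMM factors, a minimum count of 10 in filterByExpr, the quasi-likelihood test and Benjamini-Hochberg adjustment at 0.05. SE is the absolute log2 fold change over the square root of F. DESeq2 1.42.0, limma 3.58.1, other scalings, no filter, the 6 local libraries alone, a column-number block and left-out libraries were alternatives, and a correction for annotated transcript length was added after the data were seen. Depth was 19435961 to 21380652 counts in the local libraries. The edgeR test was checked on simulated counts with known changes, drawn with the same biological spread for every gene. DESeq2 and limma were not checked in this way.

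Named genes were the 12 highest and 12 lowest non-overlapping nuclear protein-coding genes at 10 CPM or more, every gene DESeq2 called, up to 3 members of each list by absolute log2 fold change at 1 CPM or more, the 4 genes furthest above and below all other libraries in each library, and all members of 5 lists of interest. Other genes, such as BGLU18, NAI1, PIF4, PIF5, the APR genes, XTH22, CASP2, CRK4 and the remaining non-overlapping list members, were chosen after their values were seen. The members and lists were chosen with earlier results of these data known. Gene names and transcript lengths came from the RefSeq tables of TAIR10.1 by locus, which matched 32548 of 32982 identifiers.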

Additional observations from a re-analysis of the deposited data

Results flagged for a closer look

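The Dox difference of CRK4 (AT3G45860), a cysteine-rich receptor-like kinase gene, differed between local and systemic leaves by DESeq2's test of that difference, with a log2 value of 1.19 (SE 0.22, adjusted p = 0.0022). In local leaves it stood at 229, 215 and 263 CPM with water and 245, 258 and 320 CPM with Dox. In systemic leaves it stood at 168, 159 and 186 CPM in control plants and 83.4, 95.9 and 80.3 CPM in Dox plants. The systemic groups did not overlap, and the local groups did. By edgeR the same difference was 1.20 (SE 0.23) with an unadjusted p of 0.00028 and an adjusted p of 0.832, so it did not pass there. The gene was chosen after its values were seen.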

How the results depend on the processing

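Of all alternatives to the edgeR test of Dox over water in local leaves, DESeq2 alone made calls (14 genes), and for the local minus systemic difference it made 1, while edgeR made 0 in both. Leaving out any 1 library left both edgeR counts at 0 (range 0 to 0). Genes with an unadjusted p under 0.05 numbered 329 without water library 1, 604 without water library 2, 2519 without water library 3, 774 without Dox library 1, 1624 without Dox library 2 and 1028 without Dox library 3, and 1612 without both water library 3 and Dox library 1. limma-voom gave 2145 of them and 0 calls. With the column number as a replicate block the count of calls was 0 and 33 of 57 lists had a positive median, against 39. Same-numbered columns did not deviate together (correlations of -0.35, 0.35 and 0.06), so the numbers were not taken as pairs. Total counts in place of TMM factors shifted the median of all genes to -0.12, and 26 lists were then positive; leaving out 1 library gave 33 to 40. Non-overlapping genes were 6.92% at 10 CPM or more, 6.65% with total counts and 7.33% after length correction. Of 266 named genes 69 turned in sign when some 1 library was left out. None was among the 14 called by DESeq2 or the 24 highest and lowest, whose groups did not overlap, so that a turn could hardly occur. AOX1A, HSP60, CPN10 and ANAC016 were among the 69. Among log2 fold changes printed above, the ranges without 1 library included -0.45 to 0.67 for ARR8, -0.32 to 0.81 for ARR9, -0.59 to 0.21 for NAI1, -0.24 to 0.063 for MGE1, -0.24 to 0.31 for NDA1 and -0.59 to 2.103 for NDB3. With total counts NDB1 was at -0.046 and NDC1 at -0.012, and NDA1 was at 0.16 by limma and 0.24 without both libraries. The cause was not tested.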
